A study of Mus musculus with 6 samples.

Results

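Sites where RYBP was listed and Ring1B, Cbx7 and Suz12 were not are described here, by position, width and surroundings. The peak lists of the 4 proteins were pooled, peaks sharing at least 1 bp were merged, and a region was kept when it held RYBP peaks and no other. This gave 4250 of 13390 merged regions, or 31.7% (95% Wilson interval 31.0 to 32.5%). Each of the 4250 held a single RYBP peak, so every region is 1 listed peak. Together they took 61.8% of the 6872 RYBP peaks (60.7 to 63.0%) and 59.1% of the sequence that RYBP peaks covered, 5.45 Mb.

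The lists came from ChIP-seq of wild-type E14Tg2A mouse embryonic stem cells of the 129/Ola strain, grown without feeders in serum with leukemia inhibitory factor and without any further treatment. There was 1 immunoprecipitation each for RYBP, Ring1B, Cbx7 and Suz12, each with its own antibody, and 2 with rabbit IgG, which were not analysed here. The lists give positions in build mm9 and no height, fold or read count, so the sequencing depth and the strength of each site are unknown. With 1 library per target there is no replicate check. Intervals below cover the counting of regions only, and neighbouring regions are not independent.

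RYBP, the RING1 and YY1 binding protein, is a subunit of variant forms of Polycomb repressive complex 1 (PRC1). It binds the ubiquitin ligase Ring1B and histone H2A that carries ubiquitin, and it takes the place that Cbx proteins hold in canonical PRC1. Cbx7 is the subunit of canonical PRC1 in embryonic stem cells that reads trimethylated lysine of histone H3, the mark written by PRC2, of which Suz12 is a core subunit. Ring1B is common to both forms of PRC1. The number in the name column of the lists is 5 for RYBP and 10 for the other targets. What it stands for is not stated. Should it record the stringency of peak calling, the number of RYBP sites that stand alone would depend on it.

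The regions were chosen by the absence of overlap, so that absence is no finding. At its edge, the nearest region lay 21 bp from a Suz12 peak and 37 bp from a Ring1B peak, on chromosome 11 from 77304367 to 77305702. The next nearest to Ring1B lay 66 bp away on chromosome 3 from 89197308 to 89198494, and 90 bp away on chromosome 9 from 106269366 to 106270969. On the other side of the rule, the smallest overlap that removed a RYBP peak was 14 bp, on chromosome 17 from 48112793 to 48113853, followed by 64 bp and 82 bp. Such borderline sites were few. Another list came within 100 bp of 5 regions and within 1 kb of 59 (1.39%), and 4 of the 2622 remaining RYBP peaks shared under 100 bp with their best partner. The median RYBP peak outside these regions had 100% of its length inside a single peak of another list. Requiring an overlap of 50% of the shorter peak gave 4262 regions, whereas keeping only RYBP peaks of at least the median width gave 1907.

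The median width of regions with RYBP alone was 1176.5 bp (interval of the median from binomial ranks 1164 to 1188 bp), with quartiles of 1021 and 1422 bp and a range from 434 to 10286 bp. Only 112 regions were under 800 bp, and 209 (4.92%) reached 2 kb. RYBP peaks in regions with Ring1B were wider, with a median of 1306 bp (1285 to 1332 bp), and 10.4% of these 2399 peaks reached 2 kb. The 223 RYBP peaks that met Suz12 or Cbx7 without Ring1B lay between, at 1228 bp (1164 to 1296 bp). With the RYBP list ordered by width and divided into 5 equal groups, the share without another subunit was 72.9% in the narrowest group, 62.4% in the middle group and 47.5% in the widest. Regions with Suz12 alone and with Ring1B alone were narrower, with medians of 853 and 670 bp. A wider peak meets other peaks more easily and width may follow signal strength, so these widths are given as a description and were not tested.

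**Figure D1:**
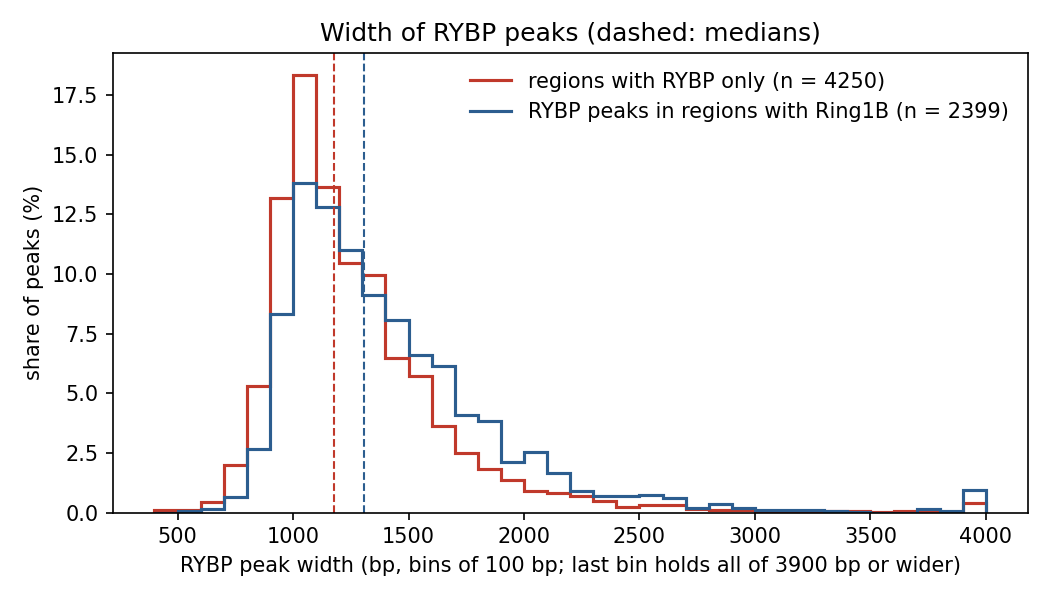
Share of RYBP peaks (vertical axis, %) by peak width (horizontal axis, bp, bins of 100 bp) for the 4250 regions with RYBP only and the 2399 RYBP peaks in regions with Ring1B. Dashed lines mark the medians of 1176.5 and 1306 bp, and the 2 distributions overlap over most of their range.

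Medians of width on single autosomes ran from 1100 bp on chromosome 12 to 1270 bp on chromosome 11. Regions under 10 kb from a Ring1B peak had a median of 1202 bp (1163 to 1260 bp, n = 350), and those over 100 kb away had a median of 1174 bp (1157 to 1191 bp, n = 1741), so the intervals overlapped. Regions that had another of their kind within 10 kb were wider, at 1236 bp (1207 to 1267 bp, n = 701), than those whose nearest lay over 100 kb away, at 1125 bp (1106 to 1142 bp, n = 1631).

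Of the 5 widest regions, 4 lay at the start of a chromosome. The widest spanned 10.3 kb on chromosome 16, from 3231421 to 3241707. The second spanned 9.38 kb on chromosome 17 (3024956 to 3034333) and the third 7.74 kb on chromosome 4 (3006031 to 3013773). Each of these 3 was the first peak of any of the 4 lists on its chromosome. The narrowest of the 5, on chromosome 17 from 3078701 to 3084924 (6.22 kb), began 53.7 kb after that first peak. Only the fourth lay in the interior of a chromosome, on chromosome 7 from 71226224 to 71233501 (7.28 kb), with another region of the kind 514 bp away. The first 100 kb after the first listed peak held 26 regions in all, 0.612% of them, with a median width of 1474.5 bp, and 5 of the 34 regions of 3 kb or wider. Chromosome 17 held 8 of those 34. Without read counts, wide binding at these places and a local excess of reads cannot be told apart.

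Most regions with RYBP alone stood over 10 kb from any other subunit. The nearest Ring1B peak was under 10 kb away for 350 regions (8.24%, 7.45 to 9.10%), from 10 to 100 kb for 2159 (50.8%, 49.3 to 52.3%) and over 100 kb for 1741 (41.0%, 39.5 to 42.5%). The median distance to Ring1B was 75.6 kb (72.2 to 79.5 kb), with quartiles of 30.0 and 170.5 kb. For Suz12 the same classes held 388 regions (9.13%, 8.30 to 10.0%), 2231 (52.5%, 51.0 to 54.0%) and 1631 (38.4%, 36.9 to 39.8%), with a median of 67.8 kb. Cbx7, whose list is the shortest, was under 10 kb from 74 regions (1.74%) and over 100 kb from 3244 (76.3%), with a median of 260 kb. The first peak met in either direction was Suz12 for 57.2% of regions, Ring1B for 39.6% and Cbx7 for 3.04%. That order is also the order of the lengths of the 3 lists. When the other lists were limited to peaks of at least their median width, 5167 regions were obtained. Of these, 4.70% were under 10 kb from Ring1B and 62.1% over 100 kb, and 5.88% and 57.1% for Suz12. The classes thus depend on this setting. It changes the regions and the number and width of the other peaks together, and these were not tested apart.

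The Ring1B and Suz12 distances went together, and 81.4% of all 6721 Ring1B regions also held Suz12. Both were under 10 kb for 265 regions (6.24%), both from 10 to 100 kb for 1825 (42.9%) and both over 100 kb for 1347 (31.7%). Close to one and far from the other was rare: 32 regions were under 10 kb from Ring1B and over 100 kb from Suz12, and 41 were the reverse. Counting all 3 lists, 476 regions (11.2%) had another subunit under 10 kb away and 1318 (31.0%) had none within 100 kb.

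**Figure D2:**
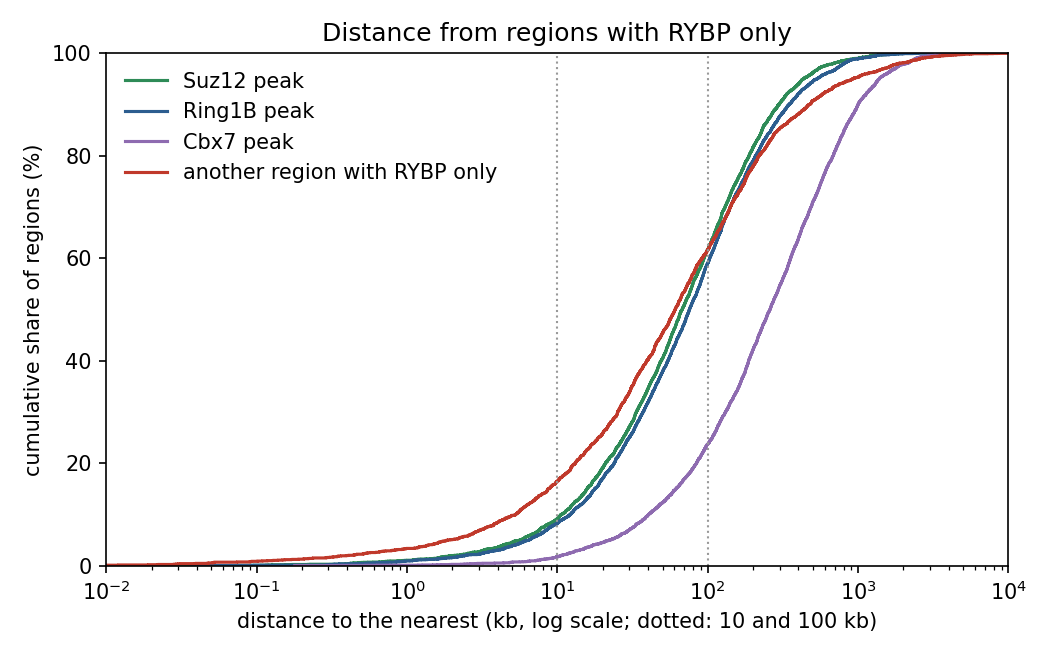
Cumulative share of the 4250 regions with RYBP only (vertical axis, %) by distance to the nearest Suz12, Ring1B or Cbx7 peak or to the nearest other region with RYBP only (horizontal axis, kb, log scale). The Ring1B and Suz12 curves run close together and pass 8.24% and 9.13% at 10 kb, while the curve for other regions of the kind passes 16.5% there.

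Other kinds of region were measured in the same way, leaving out peaks inside the region itself. Of the 2284 regions with Ring1B and RYBP, 20.2% had a further Ring1B peak under 10 kb away (18.6 to 21.9%), compared with 8.24% of regions with RYBP alone. The share was 22.7% (20.9 to 24.6%) for the 1984 regions with Suz12 alone and 19.7% (17.1 to 22.7%) for the 795 with Ring1B alone. At the far end the order was another: 36.3% of regions with Ring1B and RYBP, 40.2% of those with Suz12 alone and 48.4% of those with Ring1B alone had no Ring1B peak within 100 kb, around the 41.0% for RYBP alone. Regions with RYBP alone thus had the lowest share of close Ring1B neighbours of these 4 kinds and a middle share of distant ones. Suz12 gave the same picture, with 9.13% of regions with RYBP alone under 10 kb from a Suz12 peak and 19.7 to 28.3% of the other 3 kinds. None of these differences was tested, because the kinds are defined by the same lists and regions are not replicates.

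Where a Ring1B region did lie within 10 kb, it often carried RYBP itself. The 332 Ring1B regions that were nearest neighbours at that distance held RYBP in 49.4% of cases (44.1 to 54.8%), compared with 34.0% of all 6721 Ring1B regions. Cbx7 was present in 20.2% of them (16.2 to 24.8%) and in 34.7% of all. Suz12 was present in 75.9% (71.0 to 80.2%) and in 81.4% of all. Their median width of 2018 bp was near the 1943 bp of all Ring1B regions. Seen from the Ring1B list, 370 of 6982 peaks (5.30%) had a region with RYBP alone within 10 kb, and 2.72% of Cbx7 peaks did.

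The most remote regions were on the narrow side. The farthest from any other subunit lay on chromosome 2 from 87277517 to 87278417 (900 bp), 2.50 Mb from the nearest Suz12 peak. It was followed by chromosome 3 from 22628973 to 22629984 (1011 bp, 2.41 Mb) and chromosome 5 from 86797744 to 86798714 (970 bp, 1.95 Mb). The fourth was on chromosome 3 from 21945785 to 21946855 (1070 bp, 1.89 Mb), 682 kb from the second. The last was on chromosome 6 from 79767571 to 79768502 (931 bp, 1.84 Mb). All 5 were narrower than the median region, and all but the fourth were below the lower quartile of 1021 bp.

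Spacing among regions with RYBP alone was uneven. The median gap between neighbours along a chromosome was 138 kb, with quartiles of 40.3 and 442 kb. Of 4230 gaps, 404 (9.55%, 8.70 to 10.5%) were under 10 kb, 1413 (33.4%) were from 10 to 100 kb, 2413 were over 100 kb and 583 (13.8%) were over 1 Mb. Measured to the nearest of their kind on either side, 701 regions (16.5%, 15.4 to 17.6%) had a neighbour within 10 kb and 143 within 1 kb. Without the windows of 1 Mb that held 10 or more regions, 10.1% had a neighbour within 10 kb. Gaps under 1 kb were 75 in number, and merging across them together with close peaks of the other lists left 4113 regions. In the other kinds the share with a neighbour of the same kind within 10 kb was 8.84% for Ring1B with RYBP, 11.2% for Suz12 alone and 4.91% for Ring1B alone, but those kinds have fewer regions, which alone widens their spacing.

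Regions of the kind also followed one another in the order along the chromosome. The next merged region downstream of a region with RYBP alone was another such region in 44.2% of 4241 cases, whereas the kind makes up 31.7% of all merged regions. The 4250 regions formed 2376 uninterrupted runs, of which 1411 were single regions, 104 held 5 or more and 11 held 10 or more. The runs of 5 or more took 701 regions (16.5%).

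The 2 longest runs lay side by side on chromosome 17. A run of 24 regions from 30588557 to 30775453 and a run of 31 from 30786198 to 31030424 were separated by 1 Suz12 region from 30782037 to 30783360. Over this stretch of 442 kb, 55 regions with RYBP alone covered 19.9% of the sequence, with widths from 819 to 4283 bp and a median of 1405 bp. Without read counts, dense binding over this stretch and a local excess of reads cannot be told apart. The next longest runs held 14 regions on chromosome 11 from 117446737 to 117966059 and 12 on chromosome 6 from 124988790 to 125237027. Runs of 11 were found on chromosome 15 from 76437341 to 76756653 and from 88229937 to 88770807. On chromosome 13 there were 10 regions in 55.5 kb from 23622528 to 23678052 and 10 in 119 kb from 21807030 to 21926359.

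Density differed several-fold between autosomes. The 19 autosomes held 4233 regions, or 1.76 per Mb between the first and last listed peak (exact 95% Poisson interval 1.71 to 1.81). Chromosome 11 was the densest with 440 regions and 3.70 per Mb (3.37 to 4.07), followed by chromosome 17 with 258 and 2.80 (2.47 to 3.16) and chromosome 6 with 400 and 2.73 (2.47 to 3.01). The intervals of chromosomes 17 and 6 overlapped. Chromosome 19 had 2.29 per Mb (1.92 to 2.72) and chromosome 8 had 2.18 (1.93 to 2.45). At the low end were chromosome 1 with 146 regions and 0.755 per Mb (0.637 to 0.888), chromosome 3 with 1.11 and chromosome 12 with 1.23. Chromosomes 6, 11 and 17 held 25.9% of the autosomal regions on 14.8% of the autosomal span.

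Part of that order rested on a few crowded places. Without its fullest 1-Mb window, chromosome 17 had 2.28 per Mb (1.98 to 2.61). Leaving out the windows with 10 or more regions brought chromosome 11 to 2.36 per Mb (2.07 to 2.68), chromosome 6 to 2.13 and chromosome 17 to 1.61 (1.35 to 1.90). The value of chromosome 17 was then below chromosomes 19 at 1.73, 5 at 1.66, 8 at 1.63 and 4 at 1.62. Its interval held all of these values, so their order is not settled. Chromosome 11 still had the highest value, but its interval overlapped that of chromosome 6 (1.89 to 2.38), so the order of these 2 is not settled. Chromosome 1 had the lowest value, at 0.755 per Mb (0.637 to 0.888). Chromosome 14 went from 182 to 93 regions and came close to chromosome 1, at 0.805 per Mb (0.649 to 0.986). The intervals of chromosomes 1 and 14 overlapped in this setting, so their order is not settled.

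RYBP peaks that lay in regions with Ring1B were densest on the same chromosome, with 1.97 per Mb on chromosome 11, and the lowest autosome was chromosome 16 with 0.505. Chromosome 11 exceeded chromosome 1 by 4.91-fold for regions with RYBP alone, 2.84-fold for RYBP peaks in regions with Ring1B, 1.88-fold for Ring1B peaks and 1.87-fold for Suz12 peaks. Across the 19 autosomes, the density of regions with RYBP alone had a Pearson r of 0.86 (Spearman 0.79) with that of RYBP peaks in regions with Ring1B, 0.66 (0.53) with Ring1B peaks and 0.63 (0.46) with Suz12 peaks. Without chromosome 11 the values were 0.74 (0.75), 0.40 (0.44) and 0.33 (0.37), and without chromosomes 6, 11 and 17 they were 0.70 (0.73), 0.54 (0.55) and 0.49 (0.51). Both kinds of RYBP peak come from 1 library. The share of a chromosome's RYBP peaks that stood alone ran from 50.9% on chromosome 1 (45.1 to 56.6%) to 70.5% on chromosome 17 (65.6 to 74.9%) and 72.8% on chromosome 16 (66.1 to 78.6%).

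**Figure D3:**
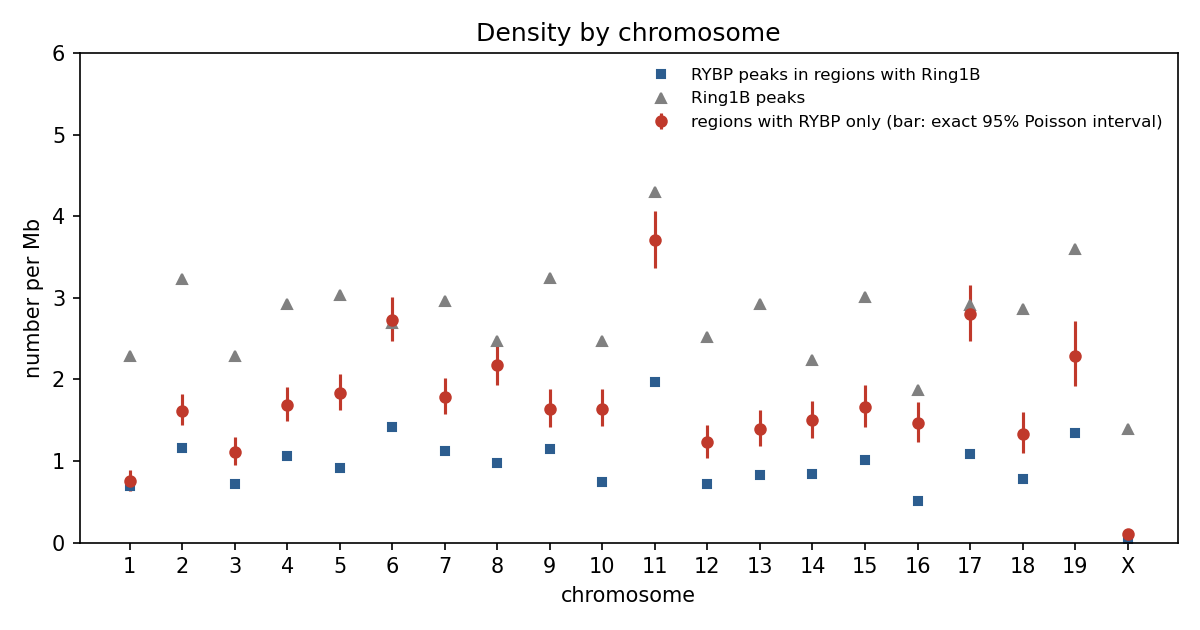
Number per Mb (vertical axis) of regions with RYBP only, of RYBP peaks in regions with Ring1B and of Ring1B peaks on each autosome and on X (horizontal axis). Bars on the first are exact 95% Poisson intervals. Chromosome 11 is highest at 3.70 regions with RYBP only per Mb, and X is the lowest of those shown at 0.105.

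Within autosomes the regions were crowded into few windows. Of 2421 windows of 1 Mb, 1159 (47.9%) held none, 682 held 1 or 2, 512 held 3 to 9 and 68 (2.81%) held 10 or more. The last 68 windows took 915 regions, or 21.6%. Counts per window had a mean of 1.75 and a variance of 8.70, a ratio of 4.98.

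The fullest window was on chromosome 17 from 30000000 to 31000000 and held 50 regions with RYBP alone, 2 Ring1B peaks and 2 Suz12 peaks. The second, on chromosome 8 from 73000000 to 74000000, held 25 regions, 8 Ring1B peaks and 7 Suz12 peaks. On chromosome 14 from 4000000 to 5000000 there were 22 regions beside 10 Ring1B and 12 Suz12 peaks, and 10 RYBP peaks in regions with Ring1B. Chromosome 10 from 80000000 to 81000000 held 20 regions beside 9 Ring1B peaks, whereas chromosome 11 from 117000000 to 118000000 held 20 beside 1 Ring1B peak. The 5 windows thus held from 1 to 10 Ring1B peaks. The mean was 7.12 over all windows with 10 or more regions and 1.40 over windows without any. Their median region widths, from 1334 to 1456 bp, were all above the 1176.5 bp of all regions. Whether these windows have a local excess of reads was not tested, because the lists give no read counts.

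Windows with more regions also held more of the other subunits on average. Windows without a region with RYBP alone had a mean of 1.40 Ring1B peaks, and 42.1% of them had none. The mean was 3.03 with 1 or 2 regions, 5.04 with 3 to 9 and 7.12 with 10 or more, and every window in the last class held a Ring1B peak. Over the 2421 windows the Spearman correlation with the number of Ring1B peaks was 0.56 (Pearson 0.42), with Suz12 peaks 0.57 (0.41), with RYBP peaks in regions with Ring1B 0.56 (0.49) and with Cbx7 peaks 0.32 (0.18). Windows differ in gene content and in mappable sequence, neither of which was measured here.

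Along the autosomes the regions were most frequent towards the far end. With each autosome divided into 10 equal parts from its first to its last listed peak, the last part held 18.2% of regions (17.1 to 19.4%) and the part before it 12.9%. The first part held 9.14%, and the lowest share was 7.11%, in part 5. The last part held 15.0% of RYBP peaks in regions with Ring1B and 13.9% of Ring1B peaks, so all 3 were above an even 10%. On 17 of 19 autosomes the last part held over 10% of that chromosome's regions. Its share was highest on chromosome 5 with 29.2%, chromosome 2 with 27.3% and chromosome 4 with 27.1%, and lowest on chromosome 17 with 3.88%.

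**Figure D4:**
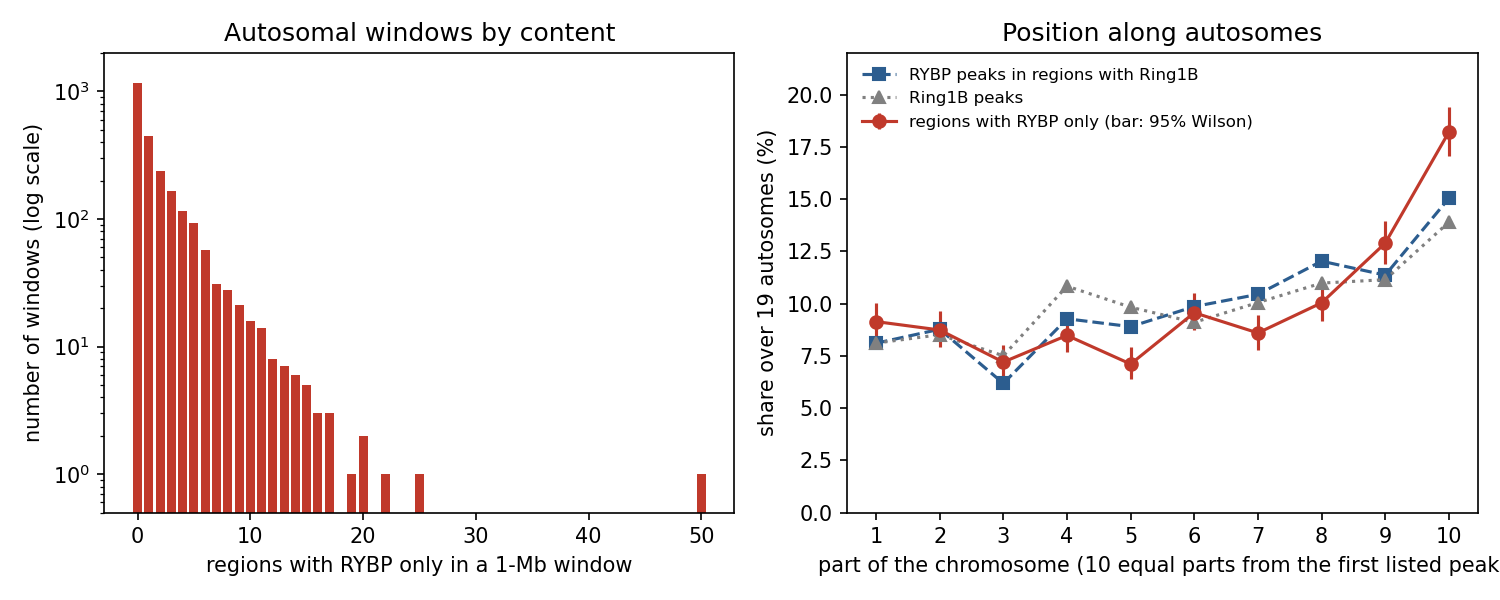
Left, the number of autosomal windows of 1 Mb (vertical axis, log scale) by how many regions with RYBP only they hold (horizontal axis), with the single window of 50 at the far right. Right, the share of regions with RYBP only, of RYBP peaks in regions with Ring1B and of Ring1B peaks (vertical axis, %) in each of 10 equal parts of the chromosome (horizontal axis), with 95% Wilson intervals on the first, which reaches 18.2% in the last part.

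Long stretches held no such region. The longest on an autosome ran on chromosome 16 from 59639729 to 84735009, 25.1 Mb with 21 Ring1B peaks, 23 Suz12 peaks, 5 Cbx7 peaks and 2 RYBP peaks. The next ran on chromosome 1 from 95837887 to 116079604, 20.2 Mb with 14 Ring1B, 16 Suz12 and 5 RYBP peaks. The third, on chromosome 15 from 38944531 to 51871450 (12.9 Mb), held 12 Ring1B, 12 Suz12 and 5 RYBP peaks. The fourth, also on chromosome 15, from 12936361 to 25220340 (12.3 Mb), held 2 Ring1B, 2 Suz12 and 0 RYBP peaks. These stretches were picked for holding no region with RYBP alone. Ring1B and Suz12 peaks were listed in each, and RYBP peaks in all but the fourth.

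Chromosome X held 17 regions, 0.400% of all (0.250 to 0.640%), or 0.105 per Mb (0.0613 to 0.168). The autosomal density was 16.7 times higher, compared with 2.01 times for Ring1B peaks and 2.15 times for Suz12 peaks. For RYBP peaks in regions with Ring1B, of which X had 6, it was 26.8 times higher. Most of the X regions stood at its end: 10 of 17 lay within 222 kb, from 166409546 to 166631840, and the last of them was the last listed peak of X in any list. Some of these 10 lay only 30 to 463 bp from the next, so they may be parts of fewer sites. Merging within 1 kb lowered the share of regions on X to 0.292%. These 10 had a median width of 2073 bp (620 to 4123 bp), while the other 7 were spread from 54661749 to 155308446 and had a median of 967 bp (851 to 1161 bp). Without that end the density of X was 0.0434 per Mb. No X region lay under 10 kb from Ring1B, and 12 of 17 lay over 100 kb away. For Suz12, 4 of the 10 regions at the end of X lay under 10 kb from a peak, and none of the other 7 did. These 4 stood side by side, with gaps of 91, 30 and 31 bp, next to the same Suz12 peak. They are therefore not 4 separate cases. The end of X was singled out after its values were seen. On Y, where Ring1B had 3 peaks, RYBP had 0.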

How the data were processed

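Binding of RYBP, Ring1B, Cbx7 and Suz12 was measured by ChIP-seq in 1 library each. The authors deposited 1 peak list per target, whose other values are start and end positions in base pairs. The tools named in the submitters' processing notes are MACS 1.3.7.1 and Bowtie 0.12.7, with build mm9. Which control and threshold were used, and whether libraries were pooled, is not given in the sources used here. Peaks were merged at an overlap of at least 1 bp. Distances run from edge to edge. Shares have 95% Wilson intervals, densities exact Poisson intervals and medians intervals from binomial ranks. Densities use the span from the first to the last peak of any list, and windows count regions by midpoint. Merging and distances were tested on simulated data and against bedtools 2.31.1. Python 3.11.15, numpy 2.4.6, pandas 2.3.3, SciPy 1.17.1 and matplotlib 3.10.9 were used. No test was run, since the regions were chosen from these lists. Regions were chosen with earlier results of these data known. Named are the 5 widest, the 5 farthest from another subunit, the 3 nearest to Ring1B and the 5 fullest 1-Mb windows; runs, gaps and the end of X were singled out later. No mm9 sequence or annotation was used here, so regions carry no gene names or sequence, and the gene lists were not applied.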

Additional observations from a re-analysis of the deposited data

How the results depend on the processing

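The 11 main values were recomputed under 8 alternatives chosen at the outset and 2 chosen after seeing the data, which gave 103 values. Of these, 72 stayed within the interval of the main value or, for the count of regions, within 1.5 times, and 31 did not. RYBP peaks of at least median width gave 1907 regions, a share of RYBP peaks of 55.3%, a median width of 1460 bp, a spacing of 248 kb, 11.6% with a neighbour of the kind within 10 kb, 10.3% under 10 kb from Suz12 and 12.8% on chromosome 11. Other lists of at least median width gave 75.2% of RYBP peaks, a spacing of 124 kb, 4.70% under 10 kb and 62.1% over 100 kb from Ring1B, and 5.88% and 57.1% for Suz12. Leaving out the 925 regions in windows of 10 or more gave a share of RYBP peaks of 55.9% and a median width of 1154 bp. The spacing was 199.7 kb, and 10.1% had a neighbour of the kind within 10 kb. Other RYBP peaks of those windows stayed in the total, and gaps ran across the emptied windows. The lower share and the wider spacing are therefore in part fixed by the setting. In that setting 7.40% were under 10 kb and 43.2% over 100 kb from Ring1B, 41.9% were over 100 kb from Suz12, the fullest autosome was chromosome 6 with 8.80%, and X held 0.211%. Merging within 1 kb gave 13.9% with a close neighbour, 7.27% under 10 kb from Ring1B and 7.97% from Suz12. Distances between centres gave 6.80% and 7.67%. Without chromosomes 6, 11 and 17, chosen after seeing the data, the median width was 1152.5 bp, the spacing 166 kb, 14.6% had a close neighbour and chromosome 2 was the fullest with 9.22%. By construction these alternatives use fewer peaks, another distance or, for merging within 1 kb, another rule for what forms a region. Requiring 50% overlap, leaving out X and Y, the first 1 Mb of each chromosome or the fullest window moved no value beyond its interval. The depth of the libraries is unknown, so it is also unknown how many weaker Ring1B, Cbx7 or Suz12 sites were missed at these regions. No paired analysis was possible because each target has 1 library.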
